A study of Mus musculus with 18 samples.

Results

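The mRNAs of 10 genes of the pluripotency network were followed through polysome gradients of mouse embryonic stem cells (ESCs) with and without DDX6, a DEAD-box RNA helicase linked to the repression and the decay of mRNAs. They are the genes for OCT4 (Pou5f1), Sox2, Nanog, Klf2, Klf4, Esrrb, REX1 (Zfp42), Sall4, Tfcp2l1 and Tbx3, chosen by name as core and naive factors, in a list drawn up with earlier results of these data known. These 10 genes were found among the 51467 genes of the count table, and all 10 were among the 12705 genes abundant enough to be tested, with at least 3 CPM, which are counts scaled to the library's total, in at least 3 libraries. The study asked if DDX6 ties the stability of mRNAs to their translation in ESCs, and measured both after its loss.

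The cells were V6.5 ESCs, either wild-type (WT) or carrying a CRISPR-Cas9 knockout of Ddx6 (Ddx6 KO), and both genotypes were kept in serum with LIF and the MEK and GSK3 inhibitors known as 2i. Ribosomes were arrested on mRNA for 2 min with 100 µg/ml cycloheximide, and lysates were separated on sucrose gradients into a monosome, a low polysome (2 to 4 ribosomes) and a high polysome (4 or more ribosomes) fraction. With 3 gradients per genotype there were 18 libraries in 6 groups of 3. The KO gradients came from 2 clones, gradient 1 from clone 1 and gradients 2 and 3 from clone 2, so the clone and the gradient cannot be told apart for clone 1. The sources used here do not say whether the gradients of a genotype came from separate cultures. The p-values therefore measure a spread between gradients that may be partly technical. In tests of fractions and their ratios this spread was pooled over all 6 groups of libraries. In KO the spread mixes 2 clones with a repeat of clone 2.

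As background, OCT4, SOX2 and NANOG bind together at enhancers of ESCs and maintain one another's genes and their own. Around them stand naive factors that respond to the culture conditions, since LIF acts through STAT3 on Klf4 and Tfcp2l1, MEK inhibition stabilises KLF2, and GSK3 inhibition relieves Esrrb of repression by TCF7L1. Tbx3 and Sall4 encode further factors of this network, and Zfp42 is a widely used marker of the naive state.

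DDX6 acts with microRNAs (miRNAs), and in ESCs the ESCC family (embryonic stem cell cell-cycle regulating miRNAs) shares a seed. Whether the cells used here held each of its members was not measured. They are shown because the study concerns miRNA targets, with bases 2 to 8 in capitals and sequences credited to RefSeq.
mmu-miR-291a-3p: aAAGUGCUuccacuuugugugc
mmu-miR-294-3p: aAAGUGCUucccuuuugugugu
mmu-miR-295-3p: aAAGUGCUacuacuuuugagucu
mmu-miR-302b-3p: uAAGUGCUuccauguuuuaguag
mmu-miR-302d-3p: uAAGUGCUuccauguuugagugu
The annotated 3′ UTRs of the 10 genes were searched on the transcribed strand for the complementary 7mers AGCACTT and GCACTTA, which overlap in the 8mer AGCACTTA. A match was found in Tfcp2l1 alone, at position 5771 of a 3′ UTR of 7734 nt and at chr1:118683205-118683211 on the plus strand of GRCm38 (mm10), with the 7 matching bases in capitals.
Tfcp2l1 3′ UTR: ctcgatggccgAGCACTTcccaactgcgag
Of 11751 tested genes with an annotated 3′ UTR, 21.9% held either 7mer and 3.77% held the 8mer. A match is a run of letters and not evidence of binding, and no other gene of the 10 had one in its annotated 3′ UTR, the longest of which after Tfcp2l1 was 2563 nt in Esrrb.

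Library totals ran from 2543617 to 11474550 gene counts and were lowest in the WT monosomes. Ddx6 stood between 143 and 212 CPM in WT libraries, at 55.3 to 82.7 CPM in the 3 libraries of KO clone 1 and at 9.68 to 26.7 CPM in the 6 libraries of clone 2. All 8 ESC markers outside the 10 genes (Fgf4, Utf1, Tdgf1, Dppa4, Dppa5a, L1td1, Trim71 and Lin28a) had a median of at least 3 CPM in both genotypes, and their summed level was 3024 to 4780 CPM in WT and 2143 to 4086 CPM in KO, with 3 of the 8 (Lin28a, Fgf4 and L1td1) called lower in the mean of the 3 fractions. Of the other lists of 8 markers, the fibroblast list summed to at most 15.4 CPM in any library, with Col3a1 at 0 throughout. The primitive endoderm list summed to 6.04 to 13.8 CPM in WT and 11.3 to 33.9 CPM in KO. In the mean of the 3 fractions, 1 of 3 tested fibroblast markers (Col1a1) was called higher in KO and 0 were lower. Of the primitive endoderm markers 2 of 2 tested (Dab2 and Amn) were called higher. The trophoblast list was at 49 to 82 CPM in WT and at 161 to 300 CPM in KO, where 4 of 5 tested markers (Krt8, Krt18, Tead4 and Gata3) were called higher in that mean and the fifth, Eomes, was not called (-0.33), beside 28.5% of all genes called higher and 28.5% called lower. The neural progenitor list was at 102 to 185 CPM in WT and 59.1 to 134 CPM in KO, with 3 of 4 tested markers (Olig2, Nes and Tubb3) called lower. Of the untested trophoblast markers, Cdx2 was at 0 to 0.283 CPM in WT and 1.13 to 5.25 CPM in KO, while Elf5 was at most 0.255 CPM and Hand1 at most 0.818 CPM in any library. Fewer cells of a type and less RNA per cell cannot be told apart in such libraries, and the part of these markers in the results below was not tested.

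The level of the 10 genes spanned more than 10-fold. Because each read of this assay marks a 3′ end, CPM was not divided by transcript length, and levels of different genes are compared on that scale, each gradient being given the mean CPM of its 3 fractions. In WT, Tfcp2l1 (555 ± 51.3 CPM, SD, n = 3) and Klf4 (550 ± 31.2 CPM) led and overlapped each other, followed by Sox2 (415 ± 23.8 CPM). Nanog (299 ± 32.8 CPM) and Klf2 (275 ± 5.46 CPM) also overlapped, and then came Esrrb (190 ± 6.48 CPM) and Tbx3 (182 ± 2.51 CPM). Zfp42 (149 ± 22.9 CPM) and Sall4 (121 ± 6.14 CPM) overlapped, while Pou5f1 was lowest at 37.3 ± 2.98 CPM in WT and 33.4 ± 1.87 CPM in KO. In KO the order changed at the top, with Klf4 first (733 ± 94.5 CPM), and Tbx3 moved from the 7th to the 5th place (347 ± 12.6 CPM), where its gradients overlapped those of Nanog above it and Sox2 below it.

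The low level of Pou5f1 was set beside what the counting could have lost, since reads that map to more than 1 place were discarded. Of the 451 windows of 50 bases (the read length) in the last 500 bases of the annotated Pou5f1 transcript, 12 (2.66%) occurred exactly in another annotated gene and 36 (7.98%) with up to 2 mismatches, both times in the pseudogene Gm5712, which had at most 4 counts in a library. The other 9 genes had no such window. Only annotated transcripts were searched, not the genome to which reads were aligned, so the loss of reads itself was not tested. The named pseudogenes Nanog-ps1 and Nanog-ps2 had 0 counts, and Gm23497, which shares 130 exon bases with Tfcp2l1 on the same strand, also had 0. Sox2 lies inside Sox2ot without shared exon bases, and Sox2ot reached at most 18 counts. Pou5f1 rested on 68 to 452 counts per library and the other 9 genes on 274 to 10553, so Pou5f1 carries the larger counting error.

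**Figure D1:**
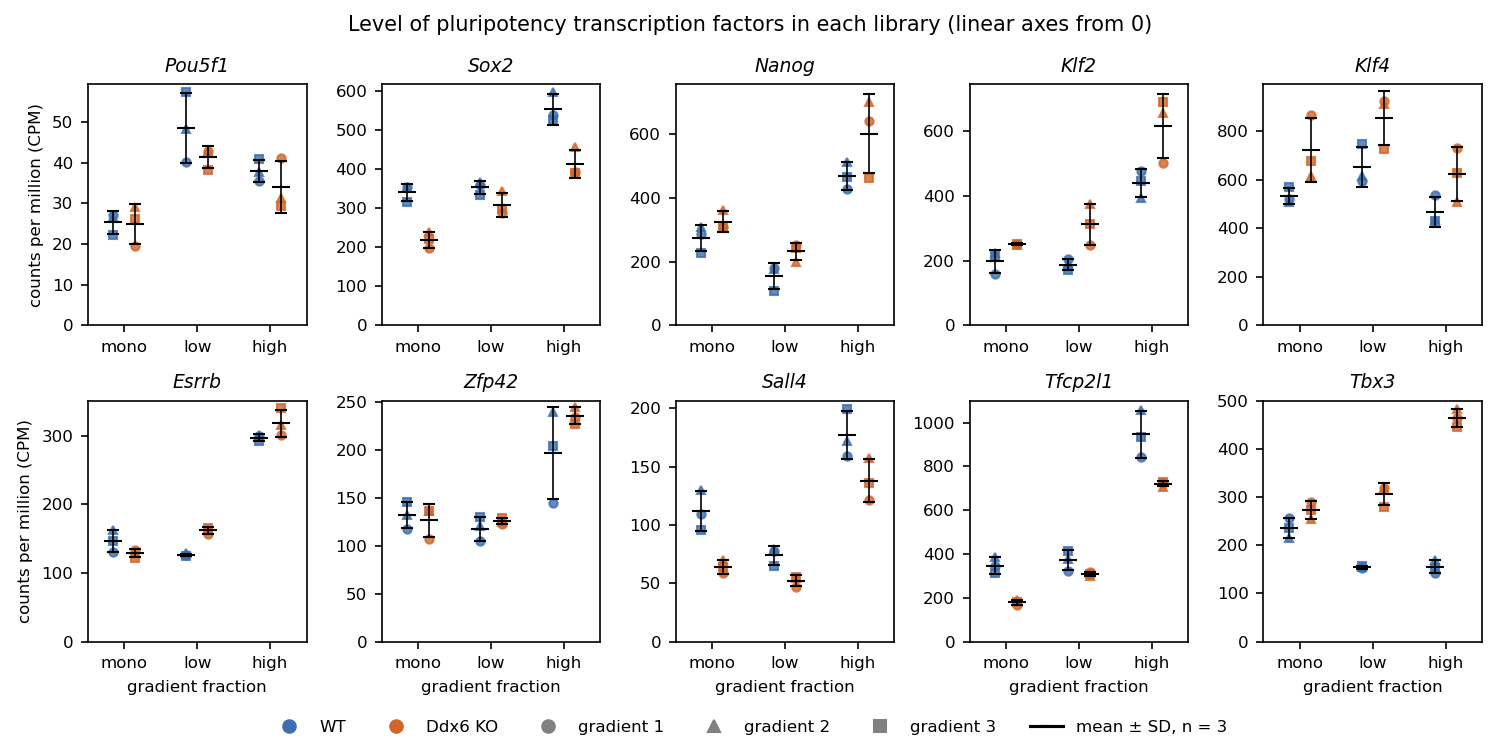
Level of each of the 10 genes in all 18 libraries, in CPM on linear axes from 0, by gradient fraction (mono, low, high). Blue points are WT and orange points are Ddx6 KO, the marker shape gives the gradient, and bars are mean ± SD of 3 gradients. For Tbx3 the 3 KO high polysome libraries sit at 445 to 483 CPM and the 3 WT ones at 143 to 170 CPM, while the monosome libraries of the 2 genotypes overlap.

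Next, the distribution over the gradient was examined within WT cells, with the ratio of high polysome to monosome as the translation level. Each library is scaled by itself, so this ratio places a gene relative to the bulk of genes. The amount of mRNA in each fraction is not known. In WT, 8 of the 10 genes had a high polysome level above their monosome level, 1 (Tbx3) was lower and 1 (Klf4) was not called. A gene was called where limma's p, adjusted by Benjamini and Hochberg over the whole table, was under 0.05. In this comparison 61.1% of all genes were called, 28.9% as higher and 32.2% as lower. The median log2 difference of the 10 genes was 0.68 and that of all genes was -0.02.

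Tfcp2l1 (chr1:118627945-118685168, plus strand), a CP2 family factor, had the highest translation level of the 10. Its log2 ratio was 1.29, 1.45 and 1.59 in WT gradients 1 to 3, and the fitted difference was 1.45 (SE 0.12, adjusted p = 1.88e-09). Klf2 (chr8:72319033-72321656, plus strand), a Krüppel-like zinc finger factor, followed with 1.60, 0.80 and 1.07 and a fitted difference of 1.15 (SE 0.16), and here gradient 1 stood above the other two. Esrrb (chr12:86361117-86521628, plus strand), an orphan nuclear receptor, ran from 0.89 to 1.20, with a fitted difference of 1.02 (SE 0.10).

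The core factors had smaller fitted differences than these 3 genes. Nanog (chr6:122707489-122714633, plus strand), a homeobox factor, differed by 0.78 (SE 0.18), Sox2 (chr3:34650405-34652461, plus strand), an HMG box factor, by 0.70 (SE 0.11) and Pou5f1 (chr17:35506018-35510772, plus strand), a POU factor, by 0.60 (SE 0.19). The zinc finger genes Sall4 (chr2:168748332-168767943, minus strand) and Zfp42 (chr8:43295063-43306980, minus strand) were similar, at 0.66 (SE 0.14) and 0.54 (SE 0.16). Klf4 (chr4:55527143-55532466, minus strand) gave -0.20 (SE 0.16, adjusted p = 0.279). The Pou5f1 call was lost without WT gradient 3 (0.43) and the Zfp42 call without WT gradient 2 (0.37).

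The low polysome set Pou5f1 and Nanog apart from each other. Pou5f1 was at 27.1, 26.7 and 22.2 CPM in the WT monosomes, 40.1, 48.2 and 57.3 CPM in the low polysomes and 35.4, 37.8 and 40.9 CPM in the high polysomes. Nanog was at 287, 307 and 228 CPM, then 181, 177 and 107 CPM, then 427, 513 and 466 CPM in the same order. Pou5f1 was thus highest, and Nanog lowest, in the low polysome of every WT gradient. The low polysome exceeded the monosome by 0.94 for Pou5f1 (log2, SE 0.19, adjusted p = 0.000463), whereas Nanog was lower there by a log2 difference of -0.85 (SE 0.19, adjusted p = 0.00102). Tbx3 (-0.60) and Sall4 (-0.59) were also lower, and the other 6 genes were not called, against 43.2% of all genes called, 20.4% as higher and 22.8% as lower. In KO the low polysome was higher than the monosome for Tfcp2l1 (0.78), Pou5f1 (0.74), Sox2 (0.49) and Esrrb (0.33) and lower for Nanog (-0.49), with 41.1% of all genes called, 20.4% as higher and 20.8% as lower. The Nanog call in KO was lost without any single KO gradient (-0.59 to -0.31), and that of Esrrb without KO gradient 2 (0.33) or KO gradient 3 (0.25).

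Across WT gradients, Pou5f1 and Klf4 had their highest CPM in the low polysome in 3 of 3 gradients, Tbx3 had it in the monosome in 3 of 3, and the remaining 7 had it in the high polysome in 3 of 3. In KO the same fraction was highest in 3 of 3 gradients for 9 of these genes, and for Tbx3 it was now the high polysome in 3 of 3.

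Tbx3 (chr5:119670669-119684724, plus strand), which encodes a T-box transcription factor, had the largest change of the 10 in Ddx6 KO in the high polysome, in translation level and in mean level. Its WT libraries were at 257, 214 and 235 CPM in the monosome, 153, 154 and 157 CPM in the low polysome and 143, 170 and 152 CPM in the high polysome. Its KO libraries were at 290, 254 and 274 CPM, 319, 319 and 280 CPM, and 463, 483 and 445 CPM. The genotypes overlapped in the monosome and were apart in both polysome fractions, where each KO library was above each WT library. Over all genes tested the libraries of the genotypes did not overlap for 52.7%, 51.3% and 55.1% from monosome to high polysome, and of the 10 genes 5, 6 and 5 did not. In WT the monosome libraries were the highest, and in KO the high polysome libraries were.

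The translation level of Tbx3 was -0.84, -0.34 and -0.63 on the log2 scale in WT gradients 1 to 3 and 0.68, 0.93 and 0.70 in KO gradients 1 to 3. All 3 WT gradients were thus negative and all 3 KO gradients positive. In the fit, the high polysome minus monosome difference was -0.60 in WT (SE 0.11, adjusted p = 8.1e-05) and 0.77 in KO (SE 0.11, adjusted p = 2.39e-06). The KO effect on translation level, which is the KO difference less the WT difference, was 1.37 (SE 0.15, adjusted p = 2.81e-05), or 2.58-fold. If the 3 fractions are given equal weight, the monosome held 43.2% ± 3.33 of the Tbx3 signal in WT and 26.2% ± 1.84 in KO, and the high polysome held 28.5% ± 2.88 in WT and 44.5% ± 1.27 in KO (SD, n = 3).

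Both polysome fractions took part in this shift. The KO effect on low polysome over monosome was 0.77 for Tbx3 (SE 0.15, adjusted p = 0.0104), and that on high polysome over low polysome was 0.60 (SE 0.15, adjusted p = 0.0298). The effect on high polysome over monosome stayed called under all 15 alternatives tried, at 1.02 or more, and was 1.41 without KO gradient 1, that is, with clone 2 alone. The low polysome call was lost when WT gradient 1 (0.69) or KO gradient 3 (0.81) was left out, and the high over low call was lost when any 1 gradient other than KO gradient 1 was left out (0.48 to 0.68).

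**Figure D2:**
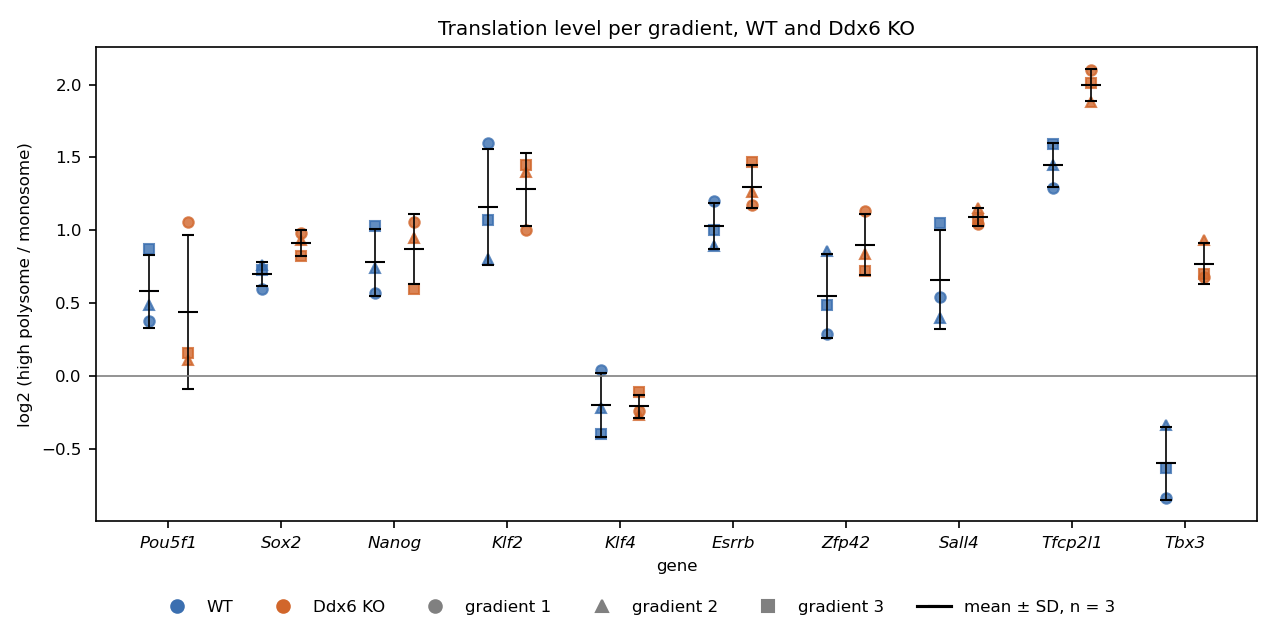
Translation level, log2 (high polysome / monosome) with a pseudocount of 0.5 CPM, for each gene on the horizontal axis and each gradient. Blue points are WT and orange points are Ddx6 KO, and bars are mean ± SD of 3 gradients. The KO gradients of Tbx3 (0.68 to 0.93) lie above 0 and its WT gradients (-0.84 to -0.34) below, and for Tfcp2l1 the KO gradients (1.88 to 2.10) lie above the WT ones (1.29 to 1.59). Those of Sox2, whose KO effect was not called, also lie apart (0.82 to 0.98 in KO, 0.60 to 0.76 in WT). For the remaining genes the genotypes overlap.

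Of all genes tested, 17.8% were called for a KO effect on high polysome over monosome, 10.7% as higher and 7.09% as lower. Of the 10 genes 2 were called, both higher, namely Tbx3 and Tfcp2l1, and 3 had an unadjusted p under 0.05. The 10 values had a median of 0.25, beside 0.02 for all genes. The value of Tbx3 exceeded those of 97.7% of all genes, and that of Tfcp2l1 exceeded 77.3%.

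Tfcp2l1 was at 344, 385 and 311 CPM in the WT monosomes and at 169, 191 and 181 CPM in the KO monosomes. In the high polysomes it was at 845, 1056 and 936 CPM in WT and 725, 708 and 730 CPM in KO. The KO libraries were below the WT libraries in both fractions, by more in the monosome. The log2 ratio of the 2 fractions was 2.10, 1.88 and 2.01 in KO gradients 1 to 3, all above the WT gradients, and the KO effect was 0.55 (SE 0.17, adjusted p = 0.0272). For low polysome over monosome the effect was 0.68 (SE 0.17, adjusted p = 0.028). Both calls were lost when any 1 gradient other than WT gradient 3 was left out, at 0.40 to 0.61 for the high polysome and 0.57 to 0.74 for the low polysome. The share of all genes called for high polysome over monosome was 17.8% with all gradients. It was 5.93% without KO gradient 3 and 8.01% without WT gradient 2, but 20.8% without KO gradient 1. For low polysome over monosome the share was 6.51% without KO gradient 1, against 4.71% with all gradients.

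Esrrb differed between genotypes in the low polysome. It was at 126, 129 and 125 CPM in the WT low polysomes and at 156, 163 and 166 CPM in the KO low polysomes, while its monosome libraries were at 130 to 162 CPM in WT and 122 to 133 CPM in KO. The KO low polysome libraries were all above the WT ones, and the monosome libraries overlapped. The KO effect on low polysome over monosome was 0.54 (SE 0.15, adjusted p = 0.0425), which made Esrrb the third gene called in this comparison beside Tbx3 and Tfcp2l1, with 4.71% of all genes called, 2.31% as higher and 2.39% as lower. The call was kept without KO gradient 1 (0.59) and lost without any other single gradient (0.46 to 0.60). Over all genes tested, the share called in this comparison was itself 0.23% without KO gradient 3 and 0.352% without WT gradient 1.

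For the other genes no KO effect on translation level was called. Sall4 gave 0.43 (SE 0.20, adjusted p = 0.135), Zfp42 0.36 (SE 0.22), Esrrb 0.28 (SE 0.15) and Sox2 0.21 (SE 0.16). Klf2 gave 0.14 (SE 0.22), Nanog 0.09 (SE 0.26), Klf4 -0.01 (SE 0.22) and Pou5f1 -0.16 (SE 0.26). The errors of Nanog, Pou5f1, Klf2, Klf4, Zfp42 and Sall4 exceeded that of Tfcp2l1 (0.17), and a p above the threshold does not show that an effect is absent. Sall4 was called without WT gradient 3 (0.64). The KO gradients of Pou5f1 were themselves uneven, at 1.06 in gradient 1 (clone 1) and 0.11 and 0.16 in gradients 2 and 3 (clone 2). On high polysome over low polysome, Tbx3 was the only gene of the 10 called, with 4.42% of all genes called, 3.39% as higher and 1.03% as lower. Without WT gradient 1 that share was 0.328%, and without KO gradient 3 limma called 0 genes, with 1592 at an unadjusted p under 0.05.

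**Figure D3:**
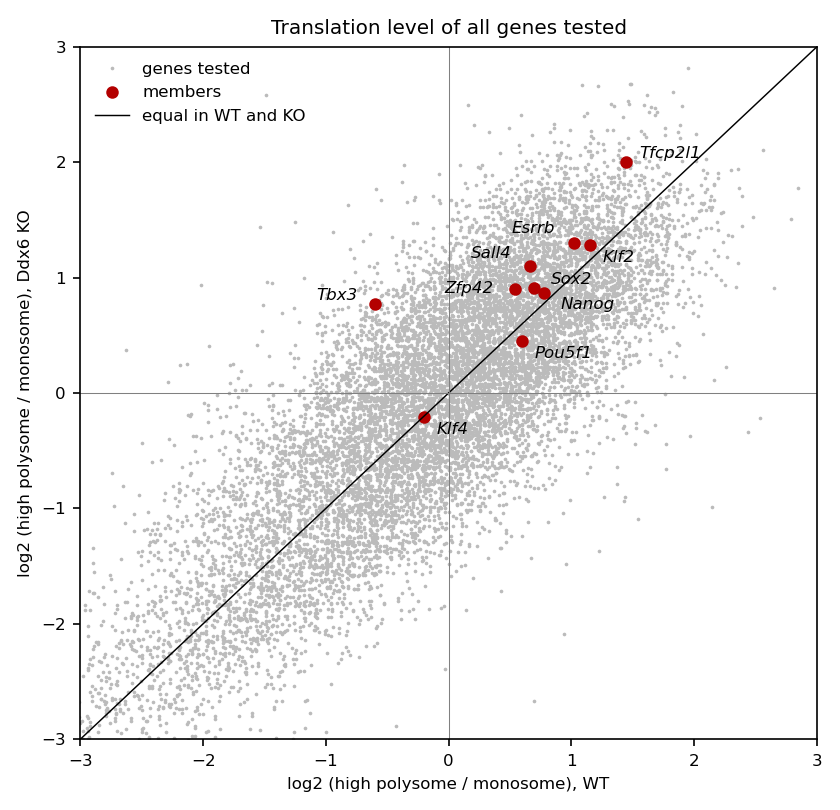
Fitted log2 (high polysome / monosome) of the 12705 genes tested, WT on the horizontal axis and Ddx6 KO on the vertical axis (grey points; 451 genes lie outside the axes), with the 10 pluripotency genes in red and a line where both genotypes are equal. Tbx3 lies alone of the 10 in the upper left area, at -0.60 in WT and 0.77 in KO, and Klf4 lies close to the line, at -0.20 and -0.21.

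The level of these mRNAs was then compared between genotypes, first as the mean log2 CPM over the 3 fractions of each gradient. In this mean 4 of the 10 genes were higher in KO (Tbx3, Klf2, Klf4 and Nanog), 3 were lower (Sall4, Tfcp2l1 and Sox2) and 3 were not called (Pou5f1, Esrrb and Zfp42). Of all genes tested 57% were called, 28.5% in each direction. The median of the 10 genes was 0.10 and that of all genes was -0.02. The mean gives each fraction equal weight and leaves out mRNA without ribosomes, so it is not the total mRNA level of the cell. From RNA-Seq, not gradient fractions, the study reported little effect of DDX6 loss on pluripotency markers.

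Among the higher genes, Tbx3 rose by a log2 change of 0.93 (SE 0.08, adjusted p = 6.4e-07) and Klf2 by 0.52 (SE 0.09, adjusted p = 0.000446). Klf2 was at 158, 225 and 213 CPM in the WT monosomes, 204, 190 and 170 CPM in the low polysomes and 478, 393 and 447 CPM in the high polysomes. In KO it was at 252, 248 and 252 CPM, 248, 375 and 314 CPM, and 502, 656 and 690 CPM. Each KO library of Klf2 was above each WT library of its fraction. In the low and high polysomes the library of clone 1 was the lowest of the 3 KO libraries.

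Klf4, which like Klf2 encodes a Krüppel-like factor, rose by 0.41 (SE 0.10, adjusted p = 0.00379). Its WT libraries were at 522, 507 and 568 CPM in the monosome, 593, 616 and 746 CPM in the low polysome and 537, 434 and 430 CPM in the high polysome, and its KO libraries at 868, 614 and 679 CPM, 925, 910 and 727 CPM, and 732, 510 and 629 CPM. The genotypes were apart in the monosome and overlapped in both polysome fractions. The change was near the same size in each fraction, at 0.42, 0.39 and 0.41 in the order above, and in the monosome the call was kept only without KO gradient 2, in the low polysome only without WT gradient 3 or KO gradient 3, and in the high polysome only without WT gradient 1 or KO gradient 2 (0.28 to 0.55 over all of these). The high polysome call was also lost with DESeq2 size factors (0.34), library size alone (0.35), the DESeq2 Wald test (0.34) and equal depth (0.33). That of the low polysome was also lost with the compared groups only.

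Nanog rose by 0.40 (SE 0.11, adjusted p = 0.0069). Its KO libraries were at 308, 362 and 305 CPM in the monosome, 252, 200 and 244 CPM in the low polysome and 641, 700 and 463 CPM in the high polysome. They were above the WT libraries given earlier in the low polysome and overlapped them in the high polysome, where KO gradient 3 (463 CPM) was below WT gradient 2 (513 CPM). Within fractions Nanog was called in the low polysome alone, at 0.61 (SE 0.19, adjusted p = 0.00959), a call that was lost without WT gradient 3 (0.36).

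Among the lower genes, Sall4, the zinc finger factor, changed by -0.55 (SE 0.10, adjusted p = 0.000346). It was at 109, 130 and 95.9 CPM in the WT monosomes, 77.3, 79.7 and 64.8 CPM in the low polysomes and 159, 172 and 199 CPM in the high polysomes. In KO it was at 58.4, 70.2 and 63.9 CPM, 47, 54.4 and 55.1 CPM, and 121, 157 and 136 CPM. Each KO library was below each WT library of its fraction, and the log2 changes from monosome to high polysome were -0.79, -0.50 and -0.36.

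Tfcp2l1 changed by -0.53 (SE 0.08, adjusted p = 0.000168) and Sox2 by -0.42 (SE 0.09, adjusted p = 0.00155). Sox2 was at 353, 353 and 315 CPM in the WT monosomes, 360, 366 and 334 CPM in the low polysomes and 537, 596 and 524 CPM in the high polysomes, and in KO at 199, 238 and 221 CPM, 287, 344 and 298 CPM, and 393, 455 and 390 CPM. The genotypes were apart in the monosome and the high polysome and overlapped in the low polysome. Like Sall4, both had their log2 change of largest size in the monosome, at -0.94 for Tfcp2l1 and -0.63 for Sox2. These 7 calls on the mean of the fractions were kept when any single gradient was left out.

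The remaining 3 genes were close to WT. Pou5f1 changed by -0.14 (SE 0.10), Esrrb by 0.09 (SE 0.08) and Zfp42 by 0.11 (SE 0.11). Pou5f1 in KO was at 19.5, 29 and 26.2 CPM in the monosome, 42.9, 42.8 and 38.2 CPM in the low polysome and 41.2, 31.4 and 29.4 CPM in the high polysome, and all 3 fractions overlapped WT. Zfp42 was at 118, 132 and 146 CPM, 105, 121 and 130 CPM, and 145, 240 and 205 CPM in WT and at 107, 137 and 137 CPM, 123, 125 and 129 CPM, and 235, 245 and 228 CPM in KO, again overlapping in each fraction. Esrrb in the high polysome was at 299, 301 and 292 CPM in WT and 301, 315 and 340 CPM in KO, and these overlapped.

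**Figure D4:**
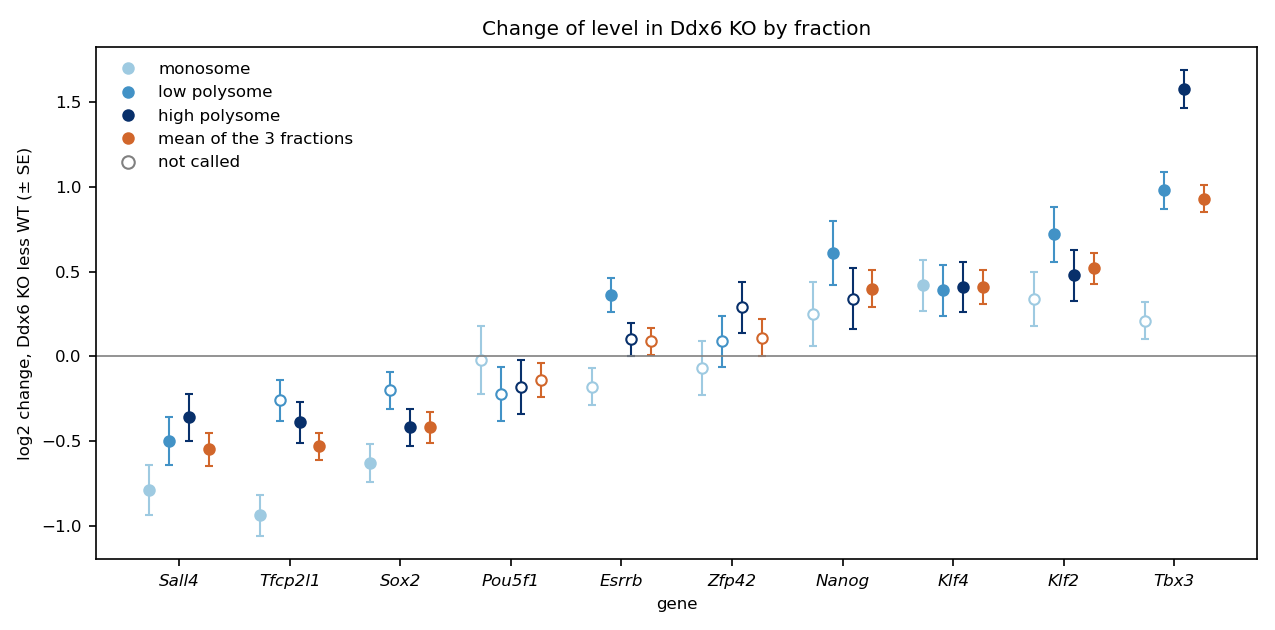
Log2 change of level in Ddx6 KO relative to WT (limma, ± SE) for each gene, ordered by the change in the mean of the 3 fractions. Light to dark blue points give the monosome, low polysome and high polysome, orange points the mean of the 3 fractions, and open points are not called. Sall4, Tfcp2l1 and Sox2 lie below 0 in all 4 comparisons, and Tbx3 runs from 0.21 in the monosome to 1.58 in the high polysome.

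Within single fractions the calls followed the same directions. In the monosome 1 gene was higher (Klf4) and 3 were lower (Tfcp2l1, Sox2 and Sall4), where 38.6% of all genes were called, 18.6% as higher and 20.1% as lower. In the low polysome 5 were higher (Tbx3, Klf2, Esrrb, Nanog and Klf4) and 1 was lower (Sall4), where 47.7% of all genes were called, 23.4% as higher and 24.3% as lower. In the high polysome 3 were higher (Tbx3, Klf2 and Klf4) and 3 were lower (Sox2, Tfcp2l1 and Sall4), where 46.5% of all genes were called, 25.3% as higher and 21.1% as lower. Tbx3 in the high polysome had the largest change of these, 1.58 (SE 0.11, adjusted p = 6.06e-10), or 2.99-fold, followed by Tbx3 in the low polysome at 0.98 (SE 0.11, adjusted p = 4.46e-07). In the monosome Tbx3 gave 0.21 (SE 0.11, adjusted p = 0.129). In the high polysome the Klf2 call was lost without WT gradient 2 (0.39) or KO gradient 3 (0.37), that of Tfcp2l1 without WT gradient 2 (-0.31), and that of Sall4 when WT gradient 2 (-0.38) or 3 (-0.27) or KO gradient 1 (-0.26) or 3 (-0.37) was left out. The Esrrb call in the low polysome was lost without KO gradient 3 (0.31).

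In KO cells the high polysome exceeded the monosome for 9 of the 10 genes, and Klf4 was not called (-0.21, SE 0.15), with 68.5% of all genes called, 35% as higher and 33.6% as lower. Tfcp2l1 again led with 2.00 (SE 0.12), above 99.2% of all genes, followed by Esrrb (1.30), Klf2 (1.28) and Sall4 (1.10). Sox2 (0.91), Zfp42 (0.90), Nanog (0.87) and Tbx3 (0.77) were next. Pou5f1, at 0.45 (SE 0.17, adjusted p = 0.0256), was not called without KO gradient 1, the gradient of clone 1 (0.13), with library size alone (0.35), with the compared groups only (0.42) or at equal depth (0.31). These ratios share their libraries with the comparisons between genotypes above.

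Other factors of the network were read from a list of 20, of which 19 were tested. In the mean of the fractions 7 were higher in KO and 4 were lower, beside 28.5% of all genes in each direction. The 4 with the smallest adjusted p were Mybl2 (-1.98), a cell-cycle transcription factor, Etv5 (-1.12), an ETS factor downstream of FGF signalling, Stat3 (0.70), the transducer of LIF, and Sall1 (0.64), a relative of Sall4. For the KO effect on translation level 5 were higher and 0 were lower, beside 10.7% and 7.09% of all genes, with 6 at an unadjusted p under 0.05 in either direction. Those called included Stat3 at 1.26 (SE 0.19, adjusted p = 0.00026), Zfp281 at 1.23 and Rest at 0.81, of which Rest was lost without WT gradient 1 (0.72) or 2 (0.75) or KO gradient 3 (0.73). Stat3 was at 141, 113 and 138 CPM in the WT monosomes, 88.7, 81.1 and 78.3 CPM in the low polysomes and 62.6, 73.4 and 75.5 CPM in the high polysomes. In KO it was at 158, 140 and 138 CPM, 105, 130 and 122 CPM, and 163, 207 and 200 CPM. As for Tbx3, the monosome was highest in WT and the high polysome in KO, but the effect on low polysome over monosome was not called for Stat3 (0.35, adjusted p = 0.289). The median KO effect of the list was 0.22, beside 0.02 for all genes.

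Genes of the formative and primed states that follow naive pluripotency were read from a list of 11, of which 5 were tested, with Fgf5 and Cer1 at 0 counts in every library. In the mean of the fractions 4 of the 5 were lower in KO and 1 was higher, beside 28.5% of all genes in each direction. Otx2, a homeobox gene of the epiblast, changed by -2.52 (SE 0.15), the DNA methyltransferase gene Dnmt3b by -1.06 (SE 0.11) and Pou3f1, a POU factor, by -0.72 (SE 0.14), while Sox4, an HMG box factor, changed by 2.30 (SE 0.11). Sox4 (1.21) and Dnmt3b (0.95) were also called for a KO effect on translation level.

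Finally, the genes whose log2 CPM most resembled the core factors over the 18 libraries were listed as a description. These libraries share gradients, genotypes and scaling, so a high correlation is common. For Pou5f1 they were Cep192 (Pearson r = 0.93), Alms1 (0.93) and Ankrd11 (0.92). For Sox2 they were Clta (0.97), Kit (0.96) and Tfcp2l1 (0.95), and for Nanog they were Exosc2 (0.97), Ipp (0.96) and Sec13 (0.96). Among the 10 genes themselves, the best match of Sox2 was Tfcp2l1, that of Nanog was Esrrb (0.80), and Pou5f1 had none above 0.42 (Sox2).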

How the data were processed

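Reads (single-end, 50 bp) from QuantSeq 3′ FWD libraries were processed by the authors. Per the labels and file headers they were trimmed with Cutadapt 1.14, aligned to mm10 with STAR 2.5.3a and restricted to unique alignments, and the deposited counts per gene were made with featureCounts 1.5.3, by strand, on Gencode M14. No molecular identifiers are mentioned, so PCR copies are among the counts. Spike-ins had 28 to 169 counts per library and were not used. Symbols, coordinates and 3′ UTRs came from Gencode M21 on GRCm38.

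Genes with at least 3 CPM in at least 3 libraries were kept. In R 4.3.3, TMM factors from edgeR 4.0.16 scaled the counts, and limma 3.58.1 with voom weights fitted a mean for each of the 6 groups, with KO effects on ratios as interaction terms. The level over all fractions was tested with limma on 1 value per gradient (prior count 2). Tests were two-sided, and a call needed p under 0.05 after Benjamini-Hochberg adjustment across the 12705 genes. An exact permutation test of 3 against 3 gradients cannot go below 0.1 and was not used. Under TMM all changes are relative to the bulk of the other genes. The CPM values printed are TMM-scaled, while the filter used library totals alone, and ratios per gradient add 0.5 CPM. The fits were also run on simulated counts drawn independently for each library. Those counts held no shared lysates and no clones, so that run could not test the effect of either.

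The fractions of a gradient come from 1 lysate, which pairs them by design. The fit to the 6 groups had no block and treated the fractions of a gradient as independent. Their deviations from group means correlated at -0.173 to 0.464 (median 0.0871, 18 pairs).

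The members and lists were chosen with earlier results of these data known. Named were the 10 genes, Ddx6, at most the 4 called genes with the smallest adjusted p per further list and comparison (1 such gene is not reported here), and the 3 genes most correlated with Pou5f1, Sox2 and Nanog. Stat3 was described by library, and Gm5712, Gm23497, Sox2ot, Cdx2, Elf5, Hand1, Eomes and Col3a1 were named, after their values were seen.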

Additional observations from a re-analysis of the deposited data

Results flagged for a closer look

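The gradient ratios of 3 genes differed between WT and Ddx6 KO by the interaction term of limma. For Tbx3 the KO effect was 1.37 on high polysome over monosome, 0.77 on low polysome over monosome and 0.60 on high polysome over low polysome (log2). For Tfcp2l1 it was 0.55 on high polysome over monosome and 0.68 on low polysome over monosome. For Esrrb it was 0.54 on low polysome over monosome. Of all genes tested, 17.8%, 4.71% and 4.42% were called in the 3 comparisons in the order high over monosome, low over monosome and high over low. In Tbx3 all 3 WT gradients and all 3 KO gradients lay on opposite sides of 0 for high polysome over monosome. Here 0 stands near the bulk of genes and does not mean equal amounts of mRNA in the fractions.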

How the results depend on the processing

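Over 15 alternatives, 1038 of 1146 values of the 10 genes kept their direction and their side of the threshold, 78 lost the call, 7 gained it and 23 changed sign, of which all 23 were uncalled with both settings. For low polysome versus monosome in either genotype, and for KO effects involving the low polysome, only called values were tallied. There, no gain of a call could be counted. The number of the 10 genes called for a KO effect on high polysome over monosome fell from 2 to 1 with no filter on low counts, with library size alone, at equal depth and with the coding-length trend removed (an alternative chosen after seeing the data), and was 1 to 3 with a gradient left out. For low polysome over monosome it fell from 3 to 1 with library size alone and with the compared groups only, to 0 with the coding-length trend removed, and was 0 to 2 with a gradient left out. For high over low polysome it fell from 1 to 0 without the filter, with the compared groups only, at equal depth and with the coding-length trend removed, and was 0 to 1 with a gradient left out. With the coding-length trend removed, the shares of all genes called in these 3 comparisons were 5.93%, 1.05% and 0.458%. Without that step they were 17.8%, 4.71% and 4.42%. With a gradient left out, 3 to 6 genes were called for KO versus WT in the high polysome and 3 to 5 for low polysome versus monosome in KO. Leaving out a gradient leaves fewer samples, and the cause of the other losses was not tested.

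Pou5f1 changed sign in the monosome with library size alone (0.04), without the filter (0.07), at equal depth (0.23) and with a gradient left out (-0.14 to 0.14), in its mean level at equal depth (0.05) and in its KO effect on translation level with a gradient left out (-0.47 to 0.01). Nanog changed sign in the KO effect with library size alone and without the filter (-0.04 each), with the compared groups only (-0.01) and with a gradient left out (-0.09 to 0.22). With a gradient left out the KO effect ran from -0.04 to 0.28 for Klf2 and from -0.12 to 0.03 for Klf4. Zfp42 changed sign in the monosome without the filter (0.02) and with a gradient left out (-0.13 to 0.05), and in its mean level (-0.04 to 0.16). The KO effect of Sall4 on translation level turned to -0.03 with the coding-length trend removed, and that of Tbx3 was 1.02.

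With library size alone the median KO effect of all genes shifted by -0.12, and of the genes called 40.3% were higher (936 of them, with 1386 lower) against 60.1% with TMM (1357 and 901). For low over monosome the shares were 31.7% and 49.2%, and for high over low 60.3% and 76.7%, or 60.7% with DESeq2 size factors. The gradient served as a replicate block for ratios of fractions, and the replicate number for KO versus WT. Neither changed a call among the tallied values of the 10 genes, with a KO effect of 1.37 for Tbx3 and 0.55 for Tfcp2l1. WT and KO libraries share only a number, with deviations that correlated at -0.485 to 0.243 over 9 pairs. Levels of WT monosome libraries, the shallowest, and of Pou5f1, the gene with the fewest counts, are the least certain. Over all genes, 748 to 2618 were called for a KO effect on high polysome over monosome with a gradient left out (2258 with all), 29 to 819 for low over monosome (598) and 0 to 807 for high over low (562). The mean level over the fractions was not run with the edgeR quasi-likelihood test, the DESeq2 Wald test or the compared groups only.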
